A study of Homo sapiens with 12 samples.

Results

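The respiratory chain genes described here were taken by a rule on gene symbols from RNA sequencing of A549, an established cell line from a human lung adenocarcinoma. The rule took every gene named as a subunit of, or as a factor sharing a name with, complex I (NDUF), complex II (SDHA to SDHD), complex III (UQC), complex IV (COX4 to COX8) or the ATP synthase, complex V (ATP5), together with the 13 protein-coding genes of the mitochondrial genome. It found 115 genes among 19647. Of these, 105 reached 1 FPKM (fragments scaled to transcript length and library depth) in 3 or more libraries, 92 of them nuclear and 13 mitochondrially encoded, and only these entered the tests. The nuclear members were 44 genes of complex I, 4 of complex II, 11 of complex III, 13 of complex IV and 20 of complex V. NDUFA4 was counted with complex IV, of which its protein is a subunit, and NDUFA4L2, its paralog, beside it. The study had 4 groups of 3 libraries: A549 cells with NR0B1 overexpression (NR0B1 OE), their overexpression control (OE control), A549 cells carrying an NR0B1 hairpin for knockdown (shNR0B1) and their hairpin control (sh control), all labelled as without other treatment. NR0B1 encodes DAX1, an orphan nuclear receptor that mostly represses transcription. The labels do not say whether the 3 libraries of a group came from separate cultures, so the p-values measure the spread between these libraries, which may be technical, and all values come from a single cell line.

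The respiratory chain passes electrons from NADH (complex I) and succinate (complex II) through coenzyme Q and cytochrome c to oxygen (complexes III and IV), and complex V uses the resulting proton gradient to make ATP. Complexes I, III, IV and V are built from proteins of both genomes: the core hydrophobic subunits are encoded by mitochondrial DNA, which is transcribed as long polycistronic RNAs by its own polymerase, and the rest by nuclear genes, many of which carry promoter sites for the transcription factors NRF1 and GABP. Complex II is nuclear in full. The libraries measured RNA, not protein, assembled complexes or respiration.

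Expected counts over the Ensembl transcripts summed to between 12800748 and 19654432 per library. NR0B1 itself was at 98.9, 81.8 and 84.1 CPM (counts scaled to library depth) in the NR0B1 OE libraries and 17.9, 60.1 and 55.2 in the OE control libraries. The groups did not overlap, but the difference did not pass the test (log2 fold change 0.99, edgeR adjusted p = 0.0912). In the knockdown arm NR0B1 was at 2.99, 3.31 and 5.84 CPM with the hairpin and 16.3, 21.1 and 13.3 CPM without it (log2 fold change -2.06, edgeR adjusted p = 0.00593). OE control replicate 1 and shNR0B1 replicate 2 stood apart from the other libraries of their groups. The counts of calls that lead each comparison are given with and without them, as are some medians. Counts of non-overlapping groups, shares and the fold changes of single genes are given with them only. The keratins KRT8 (590 to 1411 FPKM) and KRT18 (547 to 1513 FPKM), which epithelial cells express, were high in every library. The epithelial marker EPCAM reached only 2.6 FPKM and the alveolar markers SFTPC, SFTPB and NKX2-1 at most 0.12 FPKM. KRT19 was at 4.29 to 120 FPKM and CDH1 at 23.7 to 71.8 FPKM. The defining markers of leukocytes (PTPRC and CD3E), endothelium (PECAM1, VWF, CDH5 and KDR) and fibroblasts (DCN and PDGFRB) were at 0.23 FPKM or lower in all 12 libraries, while CD14, ITGAM and THY1 reached 4.46, 1.47 and 1.69 FPKM, PDGFRA 0.28 and LUM 0.66.

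Per unit of length, the mean FPKM over the 12 libraries was higher for each of the 13 mitochondrially encoded genes than for any nuclear member, but not in each group: MT-ND6 was at 256 FPKM in OE control and 270.2 FPKM in sh control, below the nuclear gene ATP5F1B at 309 and 301 FPKM. The means over the 12 libraries ran from 366 for MT-ND6 to 5584 for MT-CO1, which encodes the catalytic subunit of complex IV. Below MT-CO1 came MT-ND2 (3707 FPKM) and MT-ATP6 (3173 FPKM). Among the nuclear members the order was led by ATP5F1B, the catalytic beta subunit of the ATP synthase head, at 295 FPKM, followed by COX6A1 (227 FPKM), COX6B1 (162 FPKM), ATP5MC2 (161 FPKM) and COX4I1 (150 FPKM). The groups' mean FPKM of ATP5F1B lay between 263 in NR0B1 OE and 309 in OE control. The median nuclear member was at 27.4 FPKM. The lowest that passed were NDUFA4L2 (1.56 FPKM), ATP5S (2.51 FPKM) and ATP5MF-PTCD1 (3.37 FPKM), a readthrough of 2 neighbouring genes whose reads cannot be cleanly assigned.

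The 10 members that did not pass the filter were mostly tissue-restricted isoforms of complex IV. COX4I2, COX6A2, COX7A1 and COX7B2 were listed at 0 FPKM in all 12 libraries. COX8C did not exceed 0.19 FPKM, and COX6B2 reached 1.24 FPKM at most, passing 1 FPKM in 1 library. COX4I2 is known as a lung isoform, COX6A2 and COX7A1 as heart and muscle isoforms, and COX6B2, COX7B2 and COX8C as testis isoforms. The others were the near-copies ATP5MGL and UQCRHL, the readthrough NDUFC2-KCTD14, and NDUFS6, an accessory subunit of complex I. For NDUFS6, 88.8% of the expected counts lay on transcripts assembled by the authors, which are outside the rule, so its low level here is not the level of the gene.

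In the overexpression arm the calls among nuclear members were mostly lower. At an adjusted p below 0.05 in edgeR's quasi-likelihood test, 21 of 92 nuclear members were lower in NR0B1 OE than in OE control and 1 was higher. Over all 11908 genes tested, 18.1% were called, 8.2% lower and 9.87% higher. The median log2 fold change of the nuclear members was -0.27, against -0.03 over all genes tested, and 79 of 92 were negative. In 47 of 92 all 3 NR0B1 OE libraries lay below all 3 OE control libraries, an arrangement that 21.9% of all genes tested showed, and in 4 they lay above (21.6% of all genes). In such bulk libraries fewer expressing cells and less RNA per cell cannot be told apart. The changes were small: the 21 lower members fell by between 0.32 (COX7A2L) and 0.79 (UQCRQ) on the log2 scale. The median hardly moved when single libraries were left out (-0.31 to -0.24), but the count of calls did. It was 1 without NR0B1 OE replicate 2 or replicate 3, 2 without OE control replicate 2 or replicate 3, 7 without NR0B1 OE replicate 1, 8, 10 and 12 without sh control replicates 2, 1 and 3, and 30 without shNR0B1 replicate 2. Without both OE control replicate 1 and shNR0B1 replicate 2, an alternative chosen after seeing the data, 37 nuclear members were called lower (16 of complex I, 1 of II, 5 of III, 11 of IV and 4 of V) and 4 higher, and of all genes tested 17.6% were then called lower and 19.9% higher.

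**Figure D1:**
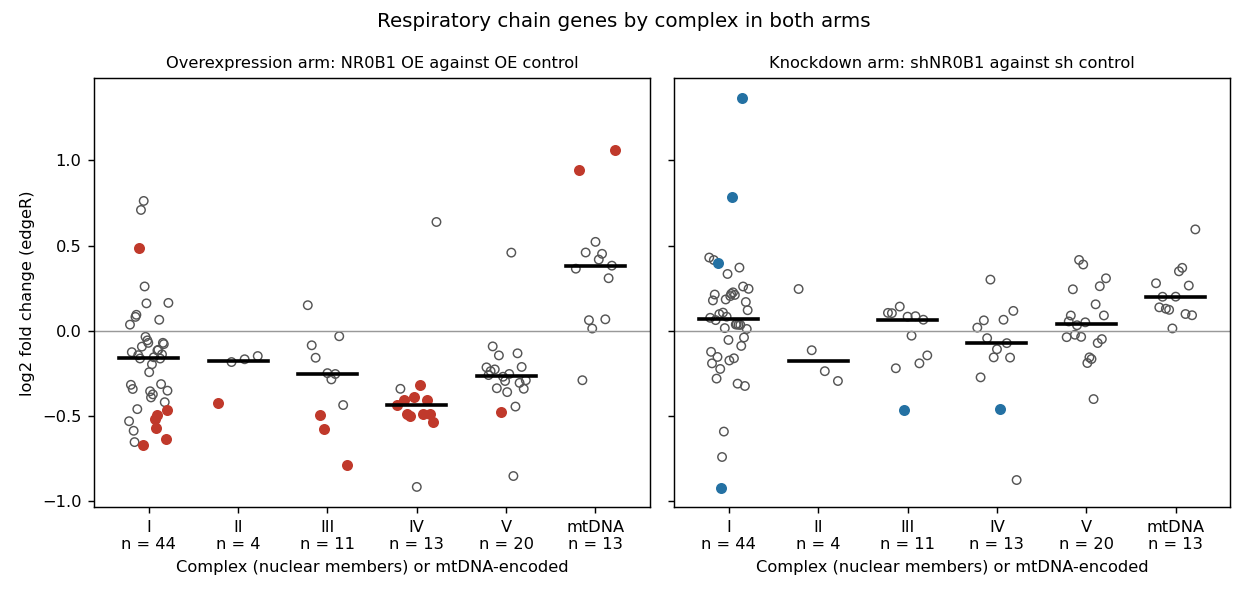
Fitted log2 fold changes of the 105 respiratory chain genes, grouped on the x axis by complex (nuclear members) or as mtDNA-encoded, in the overexpression arm (left) and the knockdown arm (right). Each point is a gene, filled where its edgeR adjusted p is below 0.05, and the black line is the median of the group. On the left the complex IV genes have a median of -0.44, with 12 of 13 below 0, and 12 of 13 mtDNA-encoded genes lie above 0. On the right the medians of complexes I, III, IV and V lie between -0.07 and 0.07, and that of complex II is -0.18.

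Complex IV, cytochrome c oxidase, held 10 of the 21 lower calls, from 13 nuclear members tested (76.9%, against 8.2% of all genes). Its median log2 fold change was -0.44. All 11 ubiquitous subunits had the 3 NR0B1 OE libraries below the 3 OE control libraries, as did 21.9% of all genes tested. Of the 11, 9 passed the test. With single libraries left out, the 10 lower calls became 1 without NR0B1 OE replicate 2 or 3 or OE control replicate 2 or 3, 4 without NR0B1 OE replicate 1 or sh control replicate 1, 3 without sh control replicate 2 and 5 without sh control replicate 3, while the median stayed between -0.49 and -0.37. The 79 nuclear members outside complex IV had 11 lower calls (13.9%) and 1 higher call (1.27%, against 9.87% of all genes). Their median was -0.24. COX6A1, a small accessory subunit encoded at chromosome 12, 120438090 to 120440742 (GRCh38), was at 150.3, 133.1 and 148.3 CPM in NR0B1 OE and at 199.9, 207.3 and 198.8 CPM in OE control. The groups were well apart, with group means of 144 ± 9.4 and 202 ± 4.6 CPM (SD, n = 3). COX6A1 was 1.40-fold lower (log2 fold change -0.49, SE 0.08, edgeR adjusted p = 0.00417), and it was the only lower call that no left-out library ended (highest adjusted p 0.0284).

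COX4I1, the subunit that binds ATP as a regulator of the enzyme (chromosome 16, 85798633 to 85807044), was at 124.8, 112.4 and 112.2 CPM in NR0B1 OE and 150.4, 151.0 and 172.2 CPM in OE control. Every NR0B1 OE library was below every control library (log2 fold change -0.44, SE 0.11, edgeR adjusted p = 0.0217). COX7C (chromosome 5, 86617904 to 86620962) was at 100.4, 97.4 and 96.6 CPM against 118.1, 130.5 and 141.7 CPM. The 3 NR0B1 OE libraries were nearly level and the controls were spread above them (log2 fold change -0.41, SE 0.10, edgeR adjusted p = 0.0232). NDUFA4 (chromosome 7, 10931951 to 10940256) was at 61.8, 56.5 and 57.2 CPM against 70.6, 89.0 and 95.1 CPM, with OE control replicate 1 the closest to the NR0B1 OE libraries (log2 fold change -0.54, SE 0.15, edgeR adjusted p = 0.0319). Leaving out NR0B1 OE replicate 2 or 3 or OE control replicate 2 or 3 ended all 3 calls, as did NR0B1 OE replicate 1 for COX7C and NDUFA4 and each sh control library for NDUFA4. The adjusted p was highest without NR0B1 OE replicate 3, at 0.098, 0.0982 and 0.114.

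The other lower calls in complex IV were COX5B, COX6B1, COX6C, COX7B and COX8A, with log2 fold changes of -0.41, -0.50, -0.39, -0.49 and -0.49, and COX7A2L at -0.32 (adjusted p = 0.0497). COX7A2L is a supercomplex assembly factor rather than a subunit. COX5A, another ubiquitous subunit, did not pass at -0.34 (adjusted p = 0.0949). COX7A2 had the largest difference, -0.92, but did not pass (adjusted p = 0.107); it was counted at only 4.5 to 13.7 CPM in this arm, since 87.3% of its expected counts lay on assembled transcripts. On those transcripts COX7A2 was at 51.3, 40.3 and 46.3 CPM in NR0B1 OE and 54.3, 52.4 and 70.6 CPM in OE control, again without overlap, and with both kinds of transcript summed its log2 fold change was -0.43 and passed (adjusted p = 0.0478). NDUFA4L2, at 0.3 to 2.5 CPM in this arm, had overlapping groups.

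**Figure D2:**
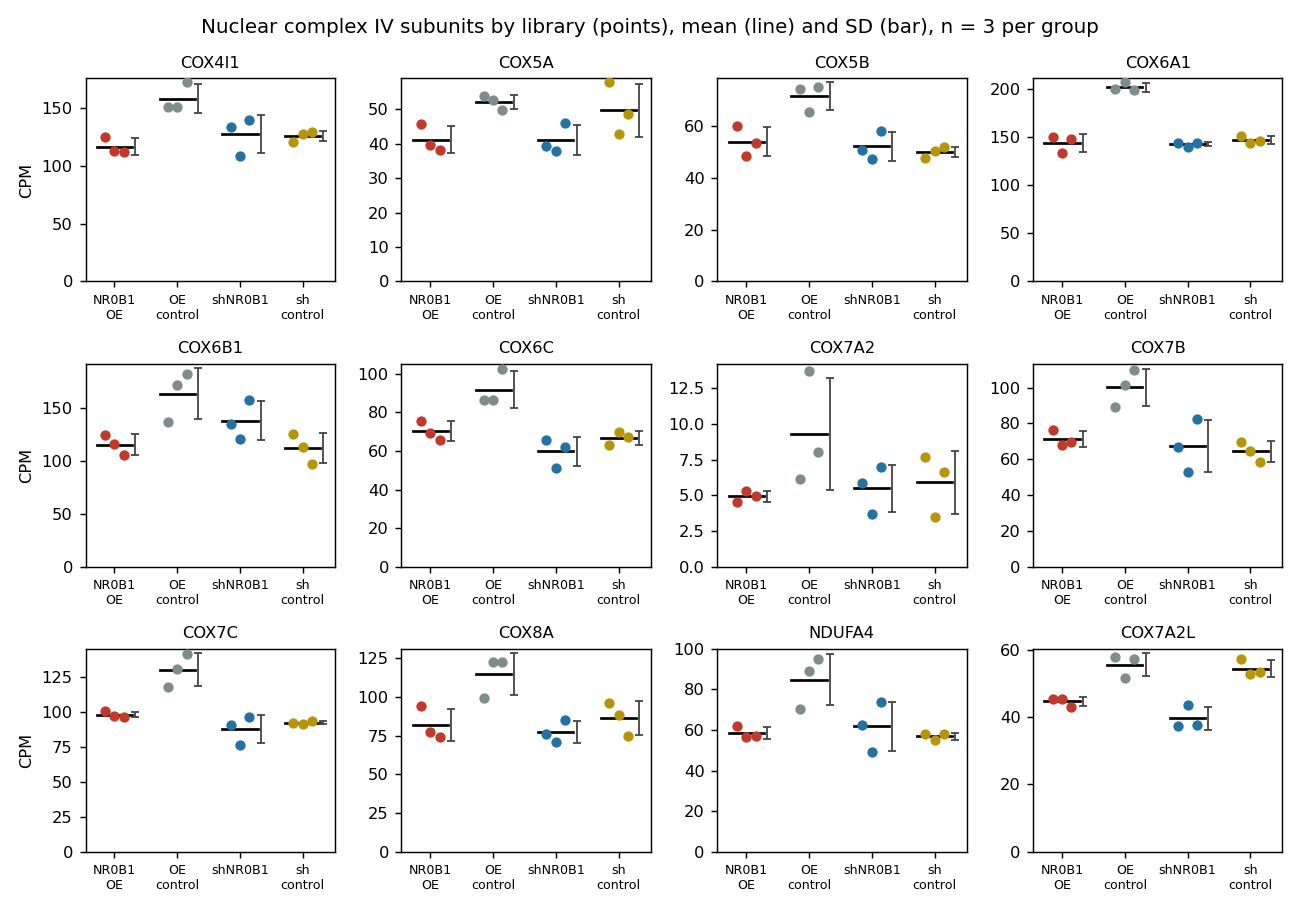
CPM of the 11 ubiquitous nuclear subunits of complex IV and of COX7A2L in the 12 libraries, by group on the x axis, with the mean as a line and the SD as a bar (n = 3). In all 12 panels the NR0B1 OE points lie below the OE control points, for COX6A1 at 133 to 150 against 199 to 207 CPM.

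Promoter sequences were searched for the core motifs of the factors known for this gene family, in the 250 bases before the RefSeq gene start (build GRCh38.p14). The motifs were GCGCATGC for NRF1, CCGGAAG for the ETS family to which GABP belongs and AAGATGGC for YY1, each on both strands, and none of these motifs contains another. Of the 92 nuclear members tested, 76 were found in the table of promoters. An NRF1 match was in 13 of the 76 genes (17.1%), an ETS match in 20 (26.3%) and a YY1 match in 1 (1.32%). Over all 27305 genes of the table the shares were 3.22%, 10.2% and 1.64%. In complex IV, 2 of 12 genes had an NRF1 match and 4 of 12 an ETS match, against 17.2% and 25% of the members outside complex IV. The 4 complex IV genes with a match were all called lower in NR0B1 OE, and their windows are printed to show where the matches lie, with matches in capitals:
COX6A1, chr12:120437863-120438112, plus strand: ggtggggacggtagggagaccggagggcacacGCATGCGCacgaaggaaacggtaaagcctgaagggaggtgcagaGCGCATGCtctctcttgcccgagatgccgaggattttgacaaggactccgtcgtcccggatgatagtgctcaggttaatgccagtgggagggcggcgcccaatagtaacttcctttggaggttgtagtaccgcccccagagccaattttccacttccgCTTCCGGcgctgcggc
COX5B, chr2:97645812-97646061, plus strand: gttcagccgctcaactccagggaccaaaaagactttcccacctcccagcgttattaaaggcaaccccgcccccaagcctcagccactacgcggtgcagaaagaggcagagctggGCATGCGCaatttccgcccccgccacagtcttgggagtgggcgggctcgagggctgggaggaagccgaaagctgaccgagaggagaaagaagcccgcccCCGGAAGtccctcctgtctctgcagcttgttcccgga
COX8A, chr11:63974370-63974619, plus strand: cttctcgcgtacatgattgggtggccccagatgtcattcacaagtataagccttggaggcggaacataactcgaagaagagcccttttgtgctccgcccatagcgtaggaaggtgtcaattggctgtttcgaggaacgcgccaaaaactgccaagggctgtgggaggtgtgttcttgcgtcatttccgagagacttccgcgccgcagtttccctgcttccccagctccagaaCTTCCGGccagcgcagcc
COX6B1, chr19:35648073-35648322, plus strand: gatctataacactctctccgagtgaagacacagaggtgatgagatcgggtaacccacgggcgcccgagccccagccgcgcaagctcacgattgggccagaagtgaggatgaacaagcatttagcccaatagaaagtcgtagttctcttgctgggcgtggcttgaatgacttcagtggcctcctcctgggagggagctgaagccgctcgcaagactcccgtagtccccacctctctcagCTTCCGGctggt
The COX6A1 window held 2 NRF1 matches and an ETS match that ended 10 bases before the start. COX5B had an NRF1 match 136 to 129 bases before the start and an ETS match 37 to 31 bases before it. COX8A and COX6B1 had an ETS match only, ending 12 and 6 bases before the start. COX4I1, COX7C and NDUFA4, which fell by similar amounts, had none of these letters in the window. A match is a string of letters and was not tested for binding.

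Complex I, NADH dehydrogenase, had 6 lower calls (13.6%) and 1 higher call (2.27%) among 44 nuclear members, with a median of -0.16. Of all genes tested 8.2% were called lower and 9.87% higher. Of the 7 core subunits 2 were lower, of the 29 accessory subunits 3 were lower and 1 higher, and of the 8 assembly factors named NDUFAF 1 was lower. NDUFS8, a core subunit that carries iron-sulfur clusters (chromosome 11, 68030617 to 68036644), was at 50.8, 43.2 and 56.0 CPM in NR0B1 OE and 75.7, 93.4 and 63.7 CPM in OE control. The groups did not overlap, although OE control replicate 3 came near (log2 fold change -0.63, SE 0.16, edgeR adjusted p = 0.0239). The accessory subunits NDUFB7 and NDUFB8 were lower by 1.48-fold and 1.41-fold (adjusted p = 0.0311 and 0.0315). The remaining lower calls, NDUFAF3, NDUFB6 and NDUFV1, the flavoprotein that receives electrons from NADH, had log2 fold changes of -0.67, -0.52 and -0.47. NDUFA9, an accessory subunit at chromosome 12, 4649095 to 4694317, was the only nuclear member called higher. It was at 192.9, 219.1 and 195.0 CPM in NR0B1 OE and 139.2, 143.5 and 150.4 CPM in OE control, with no overlap (log2 fold change 0.49, SE 0.11, edgeR adjusted p = 0.0131). Leaving out NR0B1 OE replicate 2 took the adjusted p of NDUFA9 to 0.0554. Complex I also held the nuclear members with the highest fold changes, the assembly factors NDUFAF4 (0.76) and NDUFAF1 (0.71), which did not pass (adjusted p = 0.0542 and 0.103).

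In complex II, succinate dehydrogenase, the flavoprotein SDHA (chromosome 5, 218241 to 256700) was lower. It was at 143.5, 143.3 and 150.5 CPM in NR0B1 OE and 168.8, 211.6 and 207.6 CPM in OE control, with the NR0B1 OE libraries below all controls (log2 fold change -0.43, SE 0.10, edgeR adjusted p = 0.0161). SDHB, the iron-sulfur subunit, was at -0.18 with overlapping groups (adjusted p = 0.333). In complex III, the cytochrome bc1 complex, 3 of 11 members were lower (27.3%, against 8.2% of all genes tested). All 3 were small supernumerary subunits: UQCRQ (-0.79), UQCR11 (-0.58) and UQCR10 (-0.50). UQCRQ was at 12.7, 11.4 and 12.05 CPM in NR0B1 OE and 16.9, 20.1 and 25.4 CPM in OE control (edgeR adjusted p = 0.0174). All 8 complex III subunits had a negative log2 fold change. In 6 of them the NR0B1 OE libraries lay below all controls, as in 21.9% of all genes tested. The 3 assembly factors named UQCC lay between -0.16 and 0.15, with 0 called by edgeR or DESeq2 or at an unadjusted p below 0.05.

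Complex V had 1 lower call in 20 members (5%, against 8.2% of all genes tested). Its median of -0.27 equalled that of all nuclear members, and 19 of the 20 were negative. ATP5MC2, one of the genes for the rotating c-ring (chromosome 12, 53632726 to 53677408), was at 108.5, 120.8 and 116.2 CPM in NR0B1 OE and 135.4, 181.0 and 163.9 CPM in OE control (log2 fold change -0.48, SE 0.12, edgeR adjusted p = 0.0235). The 5 genes of the catalytic head lay between -0.26 and -0.09. In 4 of the 5 the NR0B1 OE libraries lay below all controls, as in 21.9% of all genes tested. Of these 5 genes 0 were called by edgeR or DESeq2, and 1 was lower at an unadjusted p below 0.05. In 12 of the 20 complex V members every NR0B1 OE library was below every control library, to be set against the same 21.9%. Calls in complexes I, II, III and V depended on single libraries as well: complex I had 0 lower calls without NR0B1 OE replicate 2 or 3 or OE control replicate 2, and the adjusted p reached 0.0976 for NDUFS8, 0.0704 for SDHA and 0.0855 for UQCR11 without NR0B1 OE replicate 2, 0.0714 for UQCRQ without OE control replicate 3 and 0.094 for ATP5MC2 without OE control replicate 2. Leaving out NR0B1 OE replicate 2 or 3 ended each of these 5 calls, OE control replicate 2 all but that of UQCRQ, OE control replicate 3 all but that of NDUFS8, and NR0B1 OE replicate 1 those of NDUFS8, SDHA and ATP5MC2.

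Of the 13 mitochondrially encoded genes, 2 (15.4%) were called higher in NR0B1 OE and 0 lower by edgeR, where 9.87% of all genes tested were called higher, and 6 were higher and 0 lower at an unadjusted p below 0.05. DESeq2 called 3 higher and 0 lower. The median log2 fold change was 0.38, 12 of 13 were positive, and 8 of 13 had all 3 NR0B1 OE libraries above all controls, as did 21.6% of all genes tested. Without both OE control replicate 1 and shNR0B1 replicate 2, 4 were called higher (30.8%, against 19.9% of all genes). MT-ND6, the complex I subunit encoded on the light strand of the mitochondrial genome (chromosome M, 14149 to 14673), was at 336.6, 372.6 and 343.6 CPM in NR0B1 OE and 171.1, 159.7 and 173.5 CPM in OE control. The 2.09-fold difference was far larger than the spread within either group (log2 fold change 1.06, SE 0.25, edgeR adjusted p = 0.0165). MT-ATP8, a complex V subunit (chromosome M, 8366 to 8572), was at 205.9, 227.4 and 182.2 CPM against 107.1, 114.9 and 97.7 CPM (1.93-fold higher, log2 fold change 0.94, SE 0.20, edgeR adjusted p = 0.0115). No left-out library ended the call of MT-ATP8 (highest adjusted p 0.0492), whereas leaving out NR0B1 OE replicate 2 or OE control replicate 2 or 3 ended that of MT-ND6 (highest adjusted p 0.0621).

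MT-ND1 followed at 0.52 (adjusted p = 0.0568). It was called without shNR0B1 replicate 1 or without shNR0B1 replicate 2, in the latter at an adjusted p of 0.0154. MT-CO2 was at 0.46, MT-ND3 at 0.45, MT-ND2 at 0.42, MT-ND5 at 0.38 and MT-ND4L at 0.31, all with NR0B1 OE above every control library and none called. MT-ATP6, at 0.36, and MT-ND4, MT-CO3 and MT-CYB, at 0.07, 0.06 and 0.01, had overlapping groups. MT-CO1, the most abundant of the 13, was the exception: it was at 10510, 10320 and 9651 CPM in NR0B1 OE and 13060, 12690 and 11530 CPM in OE control, below them without overlap, and did not pass (log2 fold change -0.29, SE 0.15, edgeR adjusted p = 0.208). When only the 6 libraries of the arm were fitted, 6 of the 13 were called higher. The share of all genes called higher in that fit is not given here, so this count has no background beside it. It is not known here whether the counting used strand. If it did not, reads of MT-ND6 cannot be told apart from those of the opposite strand, and MT-ATP8 overlaps MT-ATP6 and MT-ND4L overlaps MT-ND4, so their split is uncertain.

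**Figure D3:**
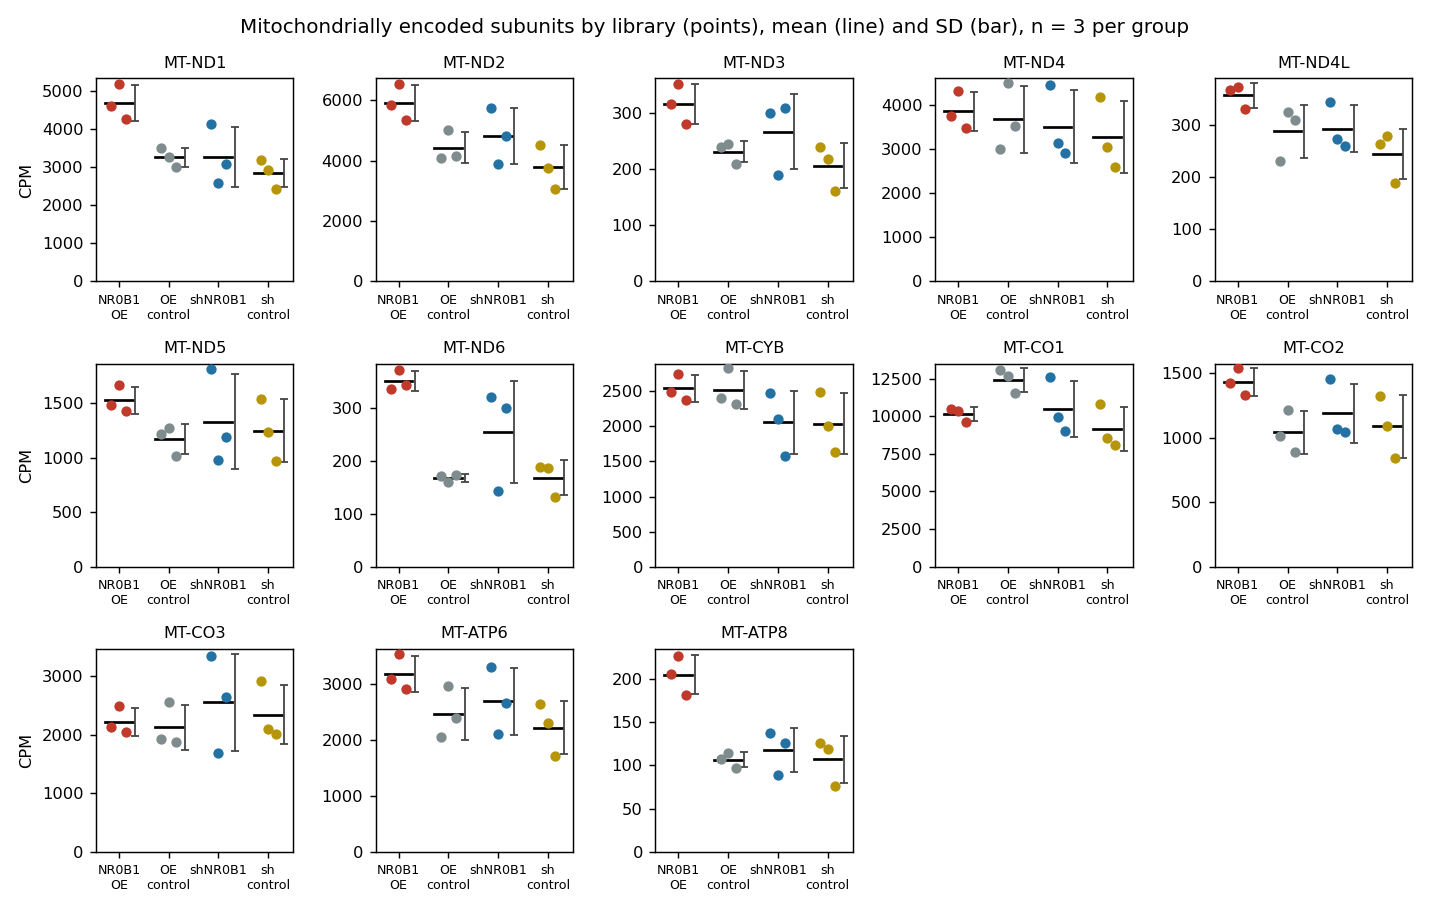
CPM of the 13 mitochondrially encoded genes in the 12 libraries, by group on the x axis, with the mean as a line and the SD as a bar (n = 3). MT-ND6 and MT-ATP8 stand highest in NR0B1 OE, MT-CO1 is lower there than in OE control, and the shNR0B1 libraries spread widely, for MT-ND6 from 144 to 321 CPM.

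Summed over genes, the nuclear members took 0.547%, 0.517% and 0.529% of the counts in NR0B1 OE and 0.603%, 0.634% and 0.639% in OE control, without overlap. The mitochondrially encoded members took 3.61%, 3.99% and 3.39% in NR0B1 OE and 3.15%, 3.73% and 3.13% in OE control, with overlap. The ratio of mitochondrially encoded to nuclear counts was 6.60, 7.71 and 6.42 in NR0B1 OE and 5.23, 5.88 and 4.90 in OE control, 1.29 times higher on average and without overlap. In the knockdown arm the ratio was 7.42, 5.93 and 5.11 with the hairpin and 6.50, 5.35 and 4.54 without it, with overlap. All 12 libraries were made from many cells, so a change in mitochondria per cell and a change in RNA per mitochondrion cannot be told apart.

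**Figure D4:**
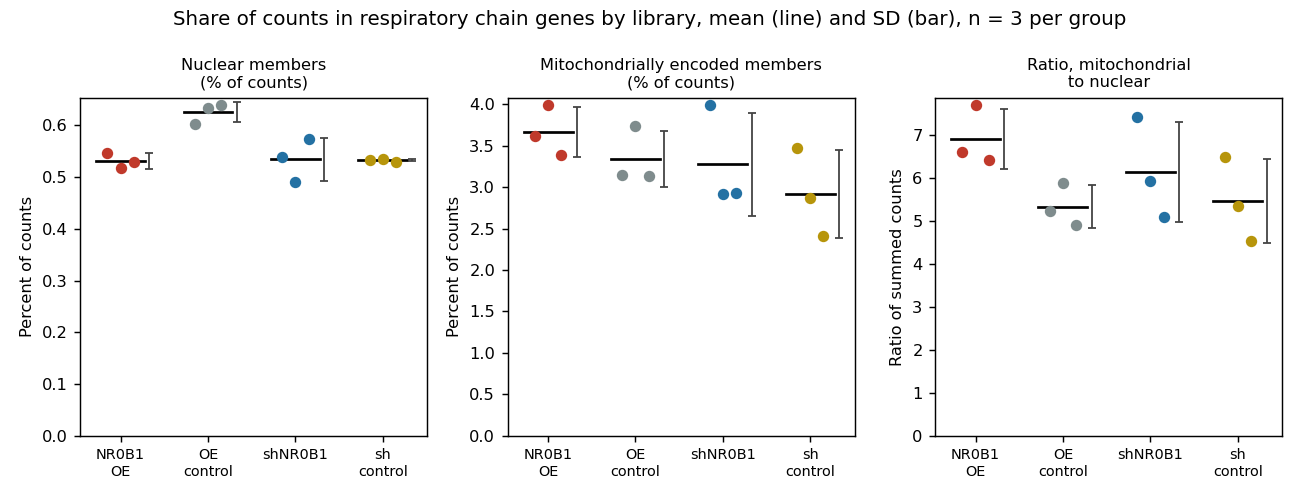
Percent of each library's expected counts in nuclear members (left) and in mitochondrially encoded members (middle), and the ratio of the latter to the former (right), by group on the x axis, with the mean as a line and the SD as a bar (n = 3). The nuclear share of OE control, 0.603% to 0.639%, lies above all 9 other libraries, and the ratio is higher in NR0B1 OE (6.42 to 7.71) than in OE control (4.90 to 5.88).

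In the knockdown arm few respiratory chain genes were called. Of 92 nuclear members, 3 were higher and 3 lower with the hairpin, 6.52% in all, where 23.9% of all genes tested were called. Of all genes 12.4% were called higher and 1372 of 11908 lower. The hairpin libraries lay all above the controls in 7 of the 92 and all below in 9, against 20.2% and 20.6% of all genes. The median log2 fold change of the nuclear members was 0.04, and 0.03 over all genes tested. Complex II had a median of -0.18, with 3 of its 4 members negative. Its hairpin libraries lay all below the controls in 2 of the 4 and all above in 1. By edgeR 0 of the 4 were called, while DESeq2 called 2 lower, as it did 1738 of all 11908 genes. Of the 13 mitochondrially encoded members 0 were called by edgeR or by DESeq2, and 1 was higher at an unadjusted p below 0.05. All 13 were positive, with a median of 0.20, and the groups overlapped in all 13. The spread among the shNR0B1 libraries was wide here, with shNR0B1 replicate 2 the lowest for MT-ND6 (143.9 CPM against 320.5 and 300.4 CPM). Without that library 3 mitochondrially encoded members were called higher, among them MT-ND6 (adjusted p = 0.00136), and the nuclear higher calls rose to 8. The nuclear lower calls were then 2. Without both that library and OE control replicate 1 the nuclear calls were 14 higher and 4 lower, where 19.0% and 18.7% of all genes were called. The nuclear median was then 0.11, and 0.01 over all genes tested. The nuclear higher calls were 1 without shNR0B1 replicate 3 or any of the sh control libraries, and the lower calls 1 without OE control replicate 3, shNR0B1 replicate 1 or sh control replicate 1 or 2, and 5 without OE control replicate 1.

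NDUFS3, a core subunit of complex I (chromosome 11, 47565336 to 47584562), changed most. It was at 40.6, 31.5 and 47.2 CPM with the hairpin and 16.5, 16.6 and 13.1 CPM in sh control, 2.58-fold higher without overlap (log2 fold change 1.37, SE 0.24, edgeR adjusted p = 0.00281). No left-out library ended this call (highest adjusted p 0.0197). The sh control libraries were the low ones: NR0B1 OE was at 36.9, 31.8 and 30.1 CPM and OE control at 22.9, 43.2 and 42.6 CPM. With the assembled transcripts of NDUFS3 added, which were lower with the hairpin, the log2 fold change was 0.86 (adjusted p = 0.0018). The accessory subunit NDUFA8 was at 31.5, 32.3 and 35.7 CPM with the hairpin and 23.6, 25.9 and 26.1 CPM in sh control (log2 fold change 0.39, SE 0.12, edgeR adjusted p = 0.031). NDUFB3, an accessory subunit, was the other higher call (log2 fold change 0.78, adjusted p = 0.0313), with overlapping groups because shNR0B1 replicate 2 was at 14.97 CPM.

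COX7A2L was at 37.5, 43.7 and 37.6 CPM with the hairpin and 57.2, 52.7 and 53.3 CPM in sh control, lower without overlap (log2 fold change -0.46, SE 0.10, edgeR adjusted p = 0.0085), and no left-out library ended the call. UQCR11 was at 20.7, 20.5 and 26.1 CPM against 31.8, 34.0 and 27.0 CPM (log2 fold change -0.46, SE 0.14, edgeR adjusted p = 0.0371), with shNR0B1 replicate 3 close to sh control replicate 3. The assembly factor NDUFAF1 (chromosome 15, 41387349 to 41402519) was at 2.6, 2.9 and 2.2 CPM against 4.5, 6.2 and 4.0 CPM, 1.90-fold lower (log2 fold change -0.92, SE 0.29, edgeR adjusted p = 0.0395). About 49.2% of the expected counts of NDUFAF1 lay on assembled transcripts, which overlapped between the groups. Single libraries ended the calls of NDUFA8 (4 libraries, adjusted p up to 0.131 without sh control replicate 1), NDUFB3 (6 libraries, up to 0.109 without sh control replicate 3), UQCR11 (6 libraries, up to 0.126) and NDUFAF1 (7 libraries, up to 0.133, both without sh control replicate 2). COX7A2L and UQCR11 were the members called in both arms, and both were lower in both. The overexpression call of COX7A2L (adjusted p = 0.0497) ended without any 1 of 10 libraries, all but shNR0B1 replicates 2 and 3, with an adjusted p of up to 0.164 without NR0B1 OE replicate 3. That of UQCR11 ended without any 1 of 4 libraries. The ubiquitous subunits of complex IV had 0 of 11 called by edgeR or DESeq2 and 0 at an unadjusted p below 0.05, with a median of -0.04.

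The arms were then compared directly, by testing the log2 fold change with overexpression minus that with the hairpin. Of 92 nuclear members 13 had a lower and 2 a higher difference, where 12.6% and 13.1% of all genes tested did (25.6% in all), and the median was -0.32 against -0.06. Of the mitochondrially encoded members 0 were called by edgeR, with 1 higher and 1 lower at an unadjusted p below 0.05, and DESeq2 called 1 higher. The largest nuclear differences were those of the assembly factors NDUFAF1 (1.63, SE 0.41, adjusted p = 0.0138) and NDUFAF4 (1.35, SE 0.35, adjusted p = 0.0164), and of NDUFS3 (-1.51, SE 0.33, adjusted p = 0.00807). SDHA differed by -0.67 (SE 0.14, adjusted p = 0.00611): it was lower in NR0B1 OE and at 0.24 with the hairpin, where its libraries lay above sh control (191.5, 187.2 and 174.4 against 151.8, 156.8 and 158.1 CPM) without passing the test (adjusted p = 0.0961). With its assembled transcripts added, SDHA did pass with the hairpin (0.32, adjusted p = 0.0292). The differences of NDUFAF1, NDUFAF4, NDUFS3 and SDHA held without any single library. About 49.2% of the expected counts of NDUFAF1 lay on assembled transcripts, whose means went the other way with overlapping groups. They were 4.21 CPM in NR0B1 OE, 5.13 in OE control, 4.435 with the hairpin and 3.05 in sh control. In complex IV, 3 of 13 members differed, COX6A1 (-0.45, adjusted p = 0.0167), COX6B1 (-0.80, adjusted p = 0.0159) and NDUFA4 (-0.65, adjusted p = 0.0432), and the 10 others were not shown to differ between the arms. The COX6A1 difference did not pass without NR0B1 OE replicate 2 or sh control replicate 2 (adjusted p up to 0.0609). Single libraries also ended the differences of NDUFA4 (10 libraries, adjusted p up to 0.107 without sh control replicate 2), UQCR10 (9 libraries, up to 0.106 without NR0B1 OE replicate 2), NDUFA8 (7 libraries, up to 0.112 without NR0B1 OE replicate 3) and NDUFS8 (6 libraries, up to 0.077 without sh control replicate 3). The count of 13 lower differences was 29 without shNR0B1 replicate 2, 20 without OE control replicate 1, 9 without shNR0B1 replicate 3, between 3 and 8 without any of the other 9 libraries, and 35 without shNR0B1 replicate 2 and OE control replicate 1 together, when 18.5% of all genes had a lower difference.

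The control groups of the arms also differed from each other. Against sh control, OE control had 27 nuclear members higher and 1 lower, where 17.2% and 16.1% of all genes tested were called (33.4% in all). In 42 of 92 all OE control libraries lay above all sh control libraries and in 7 below, as did 27.3% and 26.7% of all genes. The median was 0.23, and 0.01 over all genes. Without OE control replicate 1 and shNR0B1 replicate 2 together, 37 nuclear members were higher and 4 lower, against 23.9% and 23.6% of all genes. In complex IV 9 of 13 members were higher in OE control, with a median of 0.46, for COX6A1 by 0.46 (adjusted p = 0.00232). Of the mitochondrially encoded members MT-CO1 was called (0.44, adjusted p = 0.047) and the 12 others were not. Centred on the 12-library mean of each gene, the mean log2 level of complex IV was 0.24, 0.27 and 0.23 in the OE control libraries and between -0.25 and 0.09 in the 9 others. NR0B1 OE lay at -0.01, -0.19 and -0.14, inside the range of the knockdown arm. COX6A1 shows the pattern: 133 to 150 CPM in NR0B1 OE, 140 to 144 in shNR0B1, 144 to 152 in sh control and 199 to 207 in OE control. NR0B1 was at 17.9 to 60.1 CPM in OE control and 13.3 to 21.1 CPM in sh control. The control groups share neither a construct nor, as far as the labels say, a culture, so a change in NR0B1 OE and a shift of the OE control libraries cannot be told apart with these groups.

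**Figure D5:**
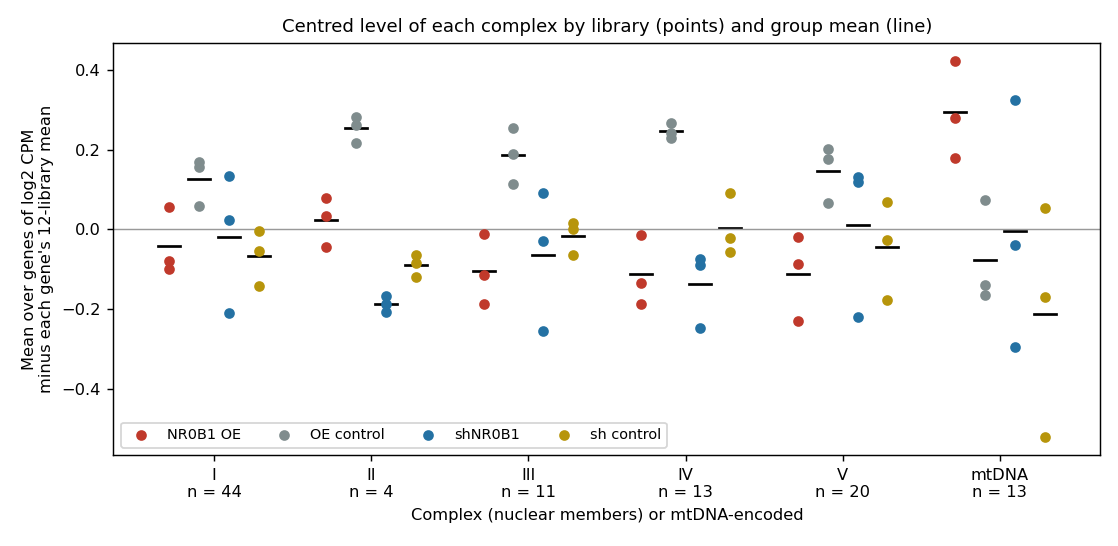
Mean over the genes of each complex of log2 CPM minus each gene's mean over the 12 libraries (y axis), for the nuclear members of complexes I to V and the mtDNA-encoded genes (x axis), with 1 point per library and the group mean as a line. The OE control points stand above all other points in complexes II, III and IV, for complex IV at 0.23 to 0.27, and the mtDNA-encoded genes are highest on average in NR0B1 OE.

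Other genes of the pathway were read from lists of assembly factors, regulators and neighbouring enzymes. Factors for mitochondrial DNA transcription and replication had 3 of 14 higher in NR0B1 OE by edgeR (21.4%, against 9.87% of all genes tested) and 0 lower, with 1 lower at an unadjusted p below 0.05 and by DESeq2. The higher ones were MTERF1, a mitochondrial termination factor (38.6 ± 3.4 against 15.8 ± 3.2 CPM, SD, n = 3, log2 fold change 1.29, edgeR adjusted p = 0.00236), TWNK, the mitochondrial helicase (0.98, adjusted p = 0.0092), and TFAM, a packaging and transcription factor of mitochondrial DNA (0.60, adjusted p = 0.0197). In the knockdown arm 3 of the 14 were lower, TFB2M, MTERF3 and SSBP1 (-0.78, -0.61 and -0.56), against 1372 of all 11908 genes, and 0 higher by edgeR, by DESeq2 or at an unadjusted p below 0.05. The list's medians were 0.14 and -0.13. Without OE control replicate 1 and shNR0B1 replicate 2 together, 4 were higher and 2 lower in NR0B1 OE, and 1 higher and 1 lower with the hairpin. Against sh control, OE control had 1 of the 14 higher and 4 lower, where 17.2% and 16.1% of all genes were called. Of 14 genes for mitochondrial RNA stability and processing, TRMT10C (1.16, adjusted p = 0.00861) and FASTKD5 (1.19, adjusted p = 0.0178) were higher in NR0B1 OE (14.3% of the list, against 9.87% of all genes), and 0 were called with the hairpin by edgeR or DESeq2, with 1 higher and 1 lower at an unadjusted p below 0.05. Of 10 regulators of respiratory genes, MYC was at 303 ± 10.4 CPM in NR0B1 OE and 77.1 ± 12.8 CPM in OE control (SD, n = 3, log2 fold change 1.97, edgeR adjusted p = 0.00118), and at 156 ± 60.2 CPM with the hairpin and 411 ± 34.6 CPM in sh control (-1.40, adjusted p = 0.00252). PPRC1, a coactivator of NRF1, was higher in NR0B1 OE (1.23, adjusted p = 0.0048), and PPARGC1A, the coactivator PGC-1 alpha, was lower with the hairpin (-2.97, adjusted p = 0.013). In each arm 2 of the 10 regulators were called by edgeR, all higher with overexpression and all lower with the hairpin, where 9.87% and 1372 of all 11908 genes were. Without OE control replicate 1 and shNR0B1 replicate 2 together, 3 were higher and 1 lower with overexpression, against 19.9% and 17.6% of all genes. With the hairpin 0 were then higher and 3 lower, against 19.0% and 18.7%. The controls differed too: in OE control 2 of the 10 were higher and 4 lower than in sh control, against 17.2% and 16.1% of all genes. NRF1 and GABPA, the factors whose motifs were searched, were at 0.31 and 0.08 in NR0B1 OE and did not pass (adjusted p = 0.298 and 0.731).

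Calls among the assembly factors of complex IV went in both directions. Of 25 tested, 4 were higher in NR0B1 OE (16%, against 9.87% of all genes tested) and 2 lower (8%, against 8.2%), with a median of -0.04 against -0.44 for the nuclear subunits. COA7 was at 72.9 ± 2.5 CPM against 23.1 ± 5.0 CPM (SD, n = 3, log2 fold change 1.66, edgeR adjusted p = 0.00215), COX10, which makes heme O, at 0.45 (adjusted p = 0.0112), the copper chaperone SCO1 at 0.55 (adjusted p = 0.0115) and COX19 at 0.53 (adjusted p = 0.0186). The lower calls were COX14 (-0.62, adjusted p = 0.0313) and HIGD2A (-0.35, adjusted p = 0.045). With the hairpin COX10 was lower (-0.42, adjusted p = 0.00964) and SURF1 and COA4 higher (0.72 and 0.60). Of 13 further complex I assembly factors 0 were called in either arm by edgeR or DESeq2, and 0 reached an unadjusted p below 0.05 in edgeR. The 14 citrate cycle enzymes all had negative log2 fold changes in NR0B1 OE, with a median of -0.19, and citrate synthase CS was lower (-0.62, adjusted p = 0.0259). With the hairpin 3 of 14 were lower (21.4%, against 1372 of all 11908 genes), CS (-0.70, adjusted p = 0.0115), DLD (-0.48) and SUCLG2 (-0.33).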

How the data were processed

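RNA of A549 cells (3 µg input per library, per the labels' protocols) was sequenced in 12 libraries. Per the submitters' processing notes the tools were RSEM, StringTie 1.3.1, Bowtie2 2.2.8, HISAT2 2.0.5 and fastp. The genome builds they name (mm10 and GRCm38) are those of mouse, but 82237 of the 82270 Ensembl transcript identifiers are human ones of GENCODE release 29. Not given in the sources used here: strand setting, filters and annotation. The authors deposited, for each transcript, expected counts, which need not be whole, and FPKM. Per the file headers these stand side by side for every library. Both were summed per gene symbol over Ensembl transcripts, and the 13977 transcripts assembled by the authors (13.3% to 15.4% of the counts) were left out of the main fit.

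Genes with 1 FPKM or more in 3 or more libraries were tested. The sums of expected counts were rounded and fitted with edgeR 4.0.16 (quasi-likelihood, robust, TMM scaling, R 4.3.3) in 1 model with a mean for each of the 4 groups, and p-values were Benjamini-Hochberg adjusted over all 11908 genes, with calls at an adjusted p below 0.05. CPM are on TMM-scaled library sizes. In a simulation every group was drawn from the OE control means at the real library sizes. Of 11908 genes, 67 were changed 1.5-fold, 67 were changed 2-fold and 66 were changed 4-fold. In the overexpression arm the fit recovered 7.46%, 50.7% and 87.9% of them. The adjusted threshold depends on how many genes change, and 18.1% were called in the real arm, so these rates do not carry over to it. Alternatives were DESeq2 1.42.0, limma 3.58.1 on log2(FPKM + 1) and log2(FPKM + 0.1), upper quartile scaling, other filters, a fit of 1 arm, a replicate block and leaving out libraries. Named members were up to 4 called members per complex and arm with the smallest adjusted p and no overlap, or else the 2 with the highest FPKM, all 13 mitochondrially encoded genes, members called in both arms and up to 4 called genes of each other list. COX14, COX5A, COX5B, COX6B1, COX6C, COX7A2, COX7B, COX8A, HIGD2A, NDUFA4L2, NDUFAF3, NDUFAF4, NDUFB3, NDUFB6, NDUFV1, NRF1 and GABPA were named outside this rule after their values were seen. The members and lists were chosen with earlier results of these data known.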

Additional observations from a re-analysis of the deposited data

Results flagged for a closer look

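For 8 of the named members the responses to overexpression and to the hairpin differed from each other by the test of the difference itself (edgeR, adjusted over all genes). The difference, overexpression minus hairpin on the log2 scale, was -0.45 for COX6A1, -0.65 for NDUFA4, -0.54 for NDUFA8, 1.63 for NDUFAF1, -1.51 for NDUFS3, -0.80 for NDUFS8, -0.67 for SDHA and -0.64 for UQCR10. COX6A1, NDUFA4, NDUFS8, SDHA and UQCR10 were called in the overexpression arm and not in the knockdown arm, while NDUFA8, NDUFAF1 and NDUFS3 were called in the knockdown arm and not in the overexpression arm. The differences of NDUFAF1, NDUFS3 and SDHA passed without any single library. About 49.2% of the expected counts of NDUFAF1 lay on assembled transcripts, which were outside this test. Those of NDUFA4, UQCR10, NDUFA8, NDUFS8 and COX6A1 did not pass without any 1 of 10, 9, 7, 6 and 2 libraries, with an adjusted p of up to 0.107, 0.106, 0.112, 0.077 and 0.0609.

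The transcripts assembled by the authors, which the main comparisons did not use, held signal of 4 members above that of the control libraries without overlap. On them UQCRC1, a core protein of complex III, was at 55.6 ± 2.55 CPM with the hairpin and 43.7 ± 3.23 CPM in sh control (SD, n = 3), and SDHA at 41.7 ± 7.16 CPM against 24.6 ± 1.77 CPM. In NR0B1 OE, ATP5S was at 3.22 ± 0.89 CPM and 1.34 ± 1.17 CPM in OE control, and MT-CO1 at 1.71 ± 0.38 CPM against 0.38 ± 0.06 CPM, although these transcripts held only 0.0081% of the expected counts of MT-CO1. Other members lay below the controls without overlap on these transcripts. In NR0B1 OE these were COX7A2 (45.95 against 59.1 CPM), NDUFS8 (44.1 against 59.5 CPM), SDHA (37.6 against 53.5 CPM) and UQCRC1 (42.0 against 50.05 CPM). With the hairpin they were NDUFC1 (0.226 against 1.44 CPM), NDUFS3 (1.35 against 7.19 CPM) and NDUFV1 (2.04 against 8.76 CPM).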

How the results depend on the processing

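The direction of every named member's fold change stayed the same under every alternative wherever the member was called. The next counts cover the members named by the rule and every other member called in an arm or in the difference of the arms. Of 1035 values of these members in the overexpression arm, 834 kept their side of the threshold, 167 lost a call and 34 gained one. In the knockdown arm the counts were 984, 35 and 16 of 1035, and for the difference of the arms 845, 104 and 41 of 990. For the shares of counts only the ratio of treated to control libraries was recomputed, and it moved by less than the spread between libraries under the alternatives run. The shares themselves depend on the unit: the mitochondrially encoded share of NR0B1 OE replicate 1 was 3.61% of counts, 3.08% with assembled transcripts in the total and 7.82% of the sum of FPKM.

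The replicate numbers were not treated as pairs in the main fit. Deviations of same-numbered libraries correlated at 0.20, 0.13 and 0.01 in the overexpression arm and at -0.01, -0.09 and -0.06 in the knockdown arm. Those of differently numbered libraries correlated at -0.18 to 0.13 in the overexpression arm and at -0.08 to 0.10 in the knockdown arm. These few values do not settle whether libraries of the overexpression arm were weakly paired. With the replicate block, the overexpression arm had 13 nuclear members lower and 2 higher, the knockdown arm 1 nuclear member lower, and the difference of the arms 6 nuclear members lower.

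In the overexpression arm, the 21 lower nuclear calls were 12 with no filter and 37 without OE control 1 and shNR0B1 2 together, and 1 to 30 without single libraries. The 1 higher nuclear call was 2 in DESeq2 and with assembled rows added, 3 in both limma fits, 4 without those 2 libraries, and 0 to 3 without single libraries. The 2 higher mitochondrially encoded calls were 6 in the fit of the arm alone, 4 without those 2 libraries and 1 to 4 without single libraries. In the knockdown arm, the 3 higher nuclear calls were 1 in the fit of the arm alone, 14 without the 2 libraries and 1 to 8 without single libraries; the 3 lower calls were 5 in DESeq2 and both limma fits, 1 in the fit of the arm alone and 1 to 5 without single libraries; and the mitochondrially encoded higher calls were 3 without the 2 libraries and 0 to 3 without single libraries. For the difference of the arms, the 13 lower nuclear calls were 21 in DESeq2, 20 with upper quartile scaling, 6 with no filter, 35 without the 2 libraries and 3 to 29 without single libraries. The 2 higher nuclear calls were 1 with assembled rows added and 2 to 3 without single libraries, and the mitochondrially encoded higher calls were 1 in DESeq2 and with assembled rows added, and 0 to 1 without single libraries. Some medians moved. Without the 2 libraries that of complex I in the overexpression arm was -0.25, against -0.16 with all 12 (-0.25 to -0.13 without single libraries). That of complex IV in the knockdown arm was then 0.018, against -0.07 (-0.15 to 0.015 without single libraries). That of all nuclear members in the knockdown arm was then 0.11, against 0.04, and over all genes tested 0.01, against 0.03. In the overexpression arm the complex IV median was -0.49 to -0.37 without single libraries, against -0.44. In the knockdown arm the complex II median, -0.18 in the main fit, was -0.15 with upper quartile scaling and -0.20 with no filter. It was -0.22 and -0.23 in the limma fits, and -0.19 to -0.15 without single libraries. Apart from the fit without the 2 libraries, the shares of all genes called in these alternatives are mostly not given here. Leaving out a library also leaves fewer samples in the fit, and otherwise the cause of these changes was not tested.

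With 3 libraries a group, changes below 2-fold can go uncalled, and so can some of 2-fold or more. An uncalled member is therefore not shown to be level. Counts on overlapping, paralogous or assembled transcripts depend on how the authors' counting split the reads.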
